A study of Homo sapiens with 6 samples.

Results

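The genes described here act on the cell cycle, most of them as brakes or accelerators of the G1 phase. They were looked at in MM.1S, a human myeloma cell line that has long been established in culture. The genes are the cyclin-dependent kinase (CDK) inhibitors CDKN1A, CDKN1B, CDKN2C and CDKN2D, the D cyclins CCND2 and CCND3, their kinase partners CDK4 and CDK6, and the stress proteins GADD45A and GADD45B. They were chosen by name, with earlier results of these data known. Every probe set that the platform annotation pairs with exactly 1 of these symbols was taken. Of the 10 genes, 9 had such a probe set, among 11963 genes in all, and these 9 were read by 15 of 19064 probe sets with 1 gene. No probe set was paired with CDKN2C in the annotation used here, so CDKN2C was not analysed. RNA came from cells kept with enzastaurin for 3, 6 or 12 h and from untreated cells harvested at those times. Enzastaurin blocks the kinase PKC beta, and the dose used is not given in the sources used here. Each of the 6 conditions had 1 Affymetrix array, so 3 arrays were treated and 3 untreated. All cells were of 1 line, and the labels do not state separate cultures. A p-value for the mean treatment difference reflects how far that difference varied between the times, with an error partly borrowed from all genes. A real change of the effect over time adds to that error, and the rest of the scatter may be technical only.

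D cyclins bind CDK4 or CDK6 and start the phosphorylation of the retinoblastoma protein, which frees E2F factors and lets a cell enter S phase. CDKN2C (p18) and CDKN2D (p19) are INK4 proteins that bind CDK4 and CDK6 alone, while CDKN1A (p21) and CDKN1B (p27) are Cip/Kip proteins that also block CDK2. GADD45 proteins are small stress-induced proteins that bind CDKN1A, PCNA and the kinase MAP3K4. Myeloma cells as a rule express 1 of the D cyclins at a high level through a translocation or a chromosome gain, and MM.1S carries a MAF translocation, which is known to drive CCND2.

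Values are MAS5 intensities, a linear brightness for each probe set, or log2 ratios of enzastaurin over untreated cells of the same time, where 1 is a doubling. Each mean log2 ratio over the 3 times carries a moderated standard error (SE) from limma, for 3 time-matched pairs (n = 3). A gene was called at an adjusted p under 0.05 (Benjamini-Hochberg) over all 6838 genes past a filter on dim probe sets. Of the 9 genes measured, 8 passed that filter and CDKN2D did not. All 10 plasma cell markers looked for (SDC1, TNFRSF17, IRF4, PRDM1, XBP1, CD38, SLAMF7, JCHAIN, POU2AF1 and MZB1) passed it. None of 8 T and NK cell markers and none of 6 monocyte markers passed it, and their intensities reached 53.1 and 54.8 at most, which serves here as the level of genes that the line does not express. Of 3 B cell markers with a probe set 1 passed the filter, and its list reached an intensity of 616. Of 5 stromal cell markers 2 passed, and that list reached 145, so genes that the line does not express may read above 54.8. CDK6, the dimmest CCND2 probe set and all GADD45B probe sets but the brightest had some values below 145, and are less certain for that reason. Median intensities of the arrays lay between 62.2 and 67.6. The mean log2 intensity of 6 ribosomal RNA control probe sets did not follow the treatment in 1 direction. It was 5.51, 10.94 and 9.24 in untreated cells at 3, 6 and 12 h, and 9.72, 5.70 and 5.31 with enzastaurin.

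The stretch of DNA just before the gene start is shown for the 3 members whose enzastaurin and untreated arrays did not overlap on their brightest probe set, CDKN1A, GADD45B and CDKN1B. RefSeq promoters of build GRCh38.p14 were matched by symbol for 8 of the 10 members, and the 250 bases before the start are printed from 5′ to 3′. Capitals mark matches on either strand, overlaps included, to the 7 motifs searched. These were GGGCGG, the box of Sp1 and KLF factors, CCAAT, the box of NF-Y, and TATAAA, the TATA box. The others were CACGTG, the E-box of MYC and related factors, TGANTCA, the site of AP-1, GTAAACA, the core of FOXO sites, and TGATGNAA, the composite site of ATF4 and CHOP.
CDKN1A, chr6:36678464-36678713, plus strand: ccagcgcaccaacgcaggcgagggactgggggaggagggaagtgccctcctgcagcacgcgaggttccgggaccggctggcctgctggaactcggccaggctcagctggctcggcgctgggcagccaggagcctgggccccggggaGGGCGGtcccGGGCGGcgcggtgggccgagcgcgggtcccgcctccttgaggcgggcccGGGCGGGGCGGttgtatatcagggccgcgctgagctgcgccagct
GADD45B, chr19:2475877-2476126, plus strand: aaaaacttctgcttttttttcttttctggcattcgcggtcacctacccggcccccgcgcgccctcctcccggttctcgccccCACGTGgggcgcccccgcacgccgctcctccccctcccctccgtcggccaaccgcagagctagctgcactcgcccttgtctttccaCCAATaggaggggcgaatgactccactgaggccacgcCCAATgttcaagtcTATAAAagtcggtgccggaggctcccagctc
CDKN1B, chr12:12717118-12717367, plus strand: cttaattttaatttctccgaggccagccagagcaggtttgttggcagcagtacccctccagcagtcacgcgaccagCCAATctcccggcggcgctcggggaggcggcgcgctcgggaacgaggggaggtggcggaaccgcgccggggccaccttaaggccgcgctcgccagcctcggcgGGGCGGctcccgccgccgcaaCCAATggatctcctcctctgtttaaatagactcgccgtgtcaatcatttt

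The CDKN1A window held 4 GGGCGG boxes, the nearest starting 40 bases before the gene start, and none of the other motifs. In GADD45B a TATAAA box began 31 bases before the start, with CCAAT boxes 45 and 82 bases before it and a CACGTG 168 bases before it. The CDKN1B window held 2 CCAAT boxes and 1 GGGCGG box. Of 35116 RefSeq promoter windows of the same length, 42.6 percent held GGGCGG, 32 percent CCAAT, 10.7 percent TATAAA and 6.34 percent CACGTG. AP-1, FOXO and ATF4 with CHOP motifs were found in 6.57, 2.98 and 3.14 percent of windows and in none of the 3 shown. A match is a run of letters, not a measured binding site.

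CDKN1A, the Cip/Kip inhibitor induced by p53 and by many stresses, had the largest mean ratio of the 8 genes. Its intensity in untreated cells was 401, 284 and 386 at 3, 6 and 12 h. With enzastaurin it was 1364, 1215 and 692 at the same times. The 3 enzastaurin arrays lay above the 3 untreated arrays with no overlap, and the gap was narrowest at 12 h. The ratio was 3.40-fold at 3 h, 4.28-fold at 6 h and 1.79-fold at 12 h. The mean log2 ratio was 1.57 (SE 0.31, n = 3), which did not pass the test in limma (adjusted p = 0.154).

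CDKN1B, the Cip/Kip inhibitor that holds resting cells in G1 and that FOXO factors induce, lay on the other side. Without the drug its intensity was 1656, 1380 and 1407, and under enzastaurin it was 987, 1344 and 1066. The groups did not overlap, but at 6 h the arrays were almost level, with log2 ratios of -0.75, -0.039 and -0.40 at 3, 6 and 12 h. Its mean log2 ratio of -0.40 (SE 0.25) did not pass the test in limma (adjusted p = 0.980). When arrays were scaled to equal medians of the kept genes the groups overlapped.

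CDKN2D, the INK4 protein p19, was dim on both of its probe sets. The first read 23.7, 8.45 and 19.2 untreated and 14.3, 3.81 and 5.15 treated. The second read 34.8, 23.2 and 21.2 untreated and 26.8, 29.8 and 34.3 with enzastaurin. All 12 values lay within the range of the T, NK and monocyte markers, and the probe sets disagreed in sign at 6 h and 12 h, so no direction is given.

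**Figure D1:**
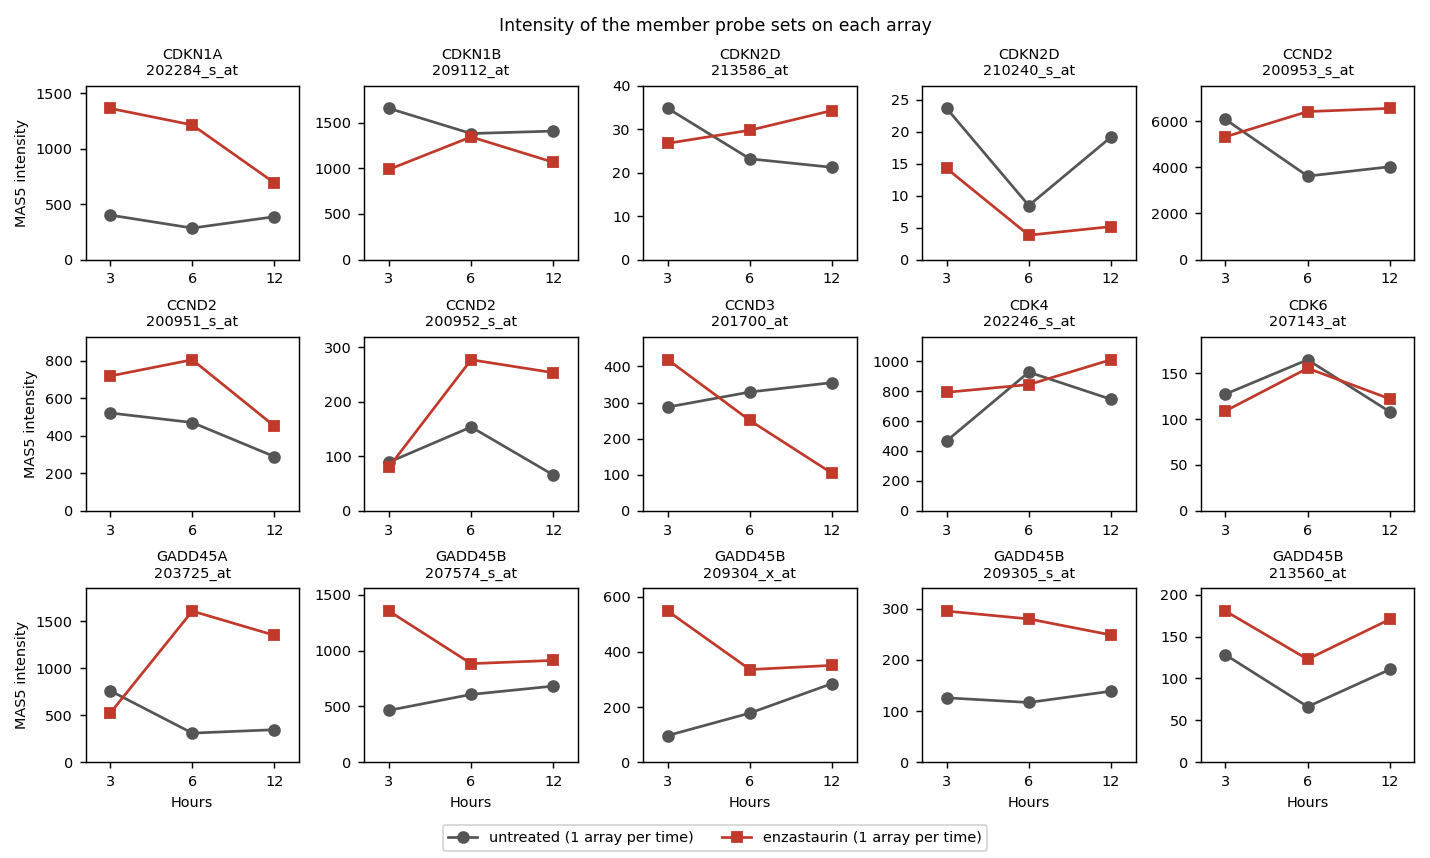
MAS5 intensity (vertical axes, each from 0) of the 15 probe sets at 3, 6 and 12 h, with grey circles for untreated and red squares for enzastaurin arrays, 1 array at each point and lines joining times only as a guide. CDKN1A and 3 of the 4 GADD45B probe sets have every red square above every grey circle, and the GADD45A lines cross between 3 h and 6 h.

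CCND2, the D cyclin of this line, was read by 3 probe sets. On the brightest the untreated intensity was 6071, 3615 and 4021 and the treated one 5320, 6413 and 6551. At 3 h the treated array was slightly the lower, with a log2 ratio of -0.19, and at 6 h and 12 h it was the higher, at 0.83 and 0.70. The untreated array at 3 h was itself high, 0.67 log2 units above the mean of the untreated arrays at 6 h and 12 h. A second probe set read 522, 471 and 290 untreated against 719, 806 and 452, higher at all 3 times, with ratios of 0.46, 0.77 and 0.64. The third and dimmest read 89.4, 154 and 65.9 against 80.6, 277 and 254, with ratios of -0.15, 0.85 and 1.94. The 3 probe sets thus had 1 sign at 6 h and 12 h and differed at 3 h. The mean log2 ratio of the brightest was 0.45 (SE 0.19), short of the test in limma (adjusted p = 0.882).

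CCND3, the D cyclin common in lymphoid cells, went from higher to lower over the times. Untreated cells had 287, 329 and 355, a narrow range. With enzastaurin the intensity was 419, 250 and 104. The log2 ratios were 0.54, -0.39 and -1.77, and at 12 h CCND3 was 3.41-fold lower than in untreated cells. CCND3 had a slope of -1.16 in the log2 ratio per doubling of hours (SE 0.37, adjusted p = 0.0918 in limma), which did not pass the test, and its mean log2 ratio was -0.54 (SE 0.40). The slope was called under 1 of 8 alternatives, with arrays scaled to equal medians of all probe sets (-1.20, adjusted p = 0.0425 in limma). It stayed uncalled under the other 7, and was furthest from a call with equal medians of the kept genes (-1.07, adjusted p = 0.358 in limma).

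CDK4, the catalytic partner of both cyclins, read 468, 927 and 745 untreated and 792, 844 and 1010 treated. Its log2 ratios of 0.76, -0.14 and 0.44 had no common sign, and the lowest of the 6 values was the untreated array at 3 h. CDK6, its close homologue, read 127, 165 and 108 untreated and 109, 155 and 122 with enzastaurin, with log2 ratios of -0.22, -0.084 and 0.18. Mean log2 ratios were 0.35 (SE 0.28) for CDK4 and -0.044 (SE 0.30) for CDK6, the smallest of the 8 genes in absolute size. The groups overlapped for both kinases.

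GADD45A, a stress-induced gene that p53 and FOXO factors activate, showed the widest swing over time. Its intensity in untreated cells was 761 at 3 h and 310 and 346 at 6 h and 12 h. With enzastaurin it was 522 at 3 h and 1609 and 1352 at the later times. At 3 h the untreated array was therefore the higher, and at 6 h and 12 h the treated arrays were above every untreated array. The log2 ratios were -0.54, 2.38 and 1.97, or 5.19-fold higher at 6 h and 3.90-fold higher at 12 h. The untreated array at 3 h lay 1.22 log2 units above the mean of the later untreated arrays, while the treated array at 3 h lay below both later treated arrays. The mean log2 ratio was 1.27 with an SE of 0.47, the widest of the 8 genes (adjusted p = 0.788 in limma).

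GADD45A was the 1 member of 8 whose slope on time was called, with 1.25 log2 units per doubling of hours (SE 0.35, adjusted p = 0.0314 in limma). Slopes were called in 1.43 percent of the 6838 genes. The call was lost with quantile normalization (adjusted p = 0.176 in limma), with equal medians of the kept genes (0.366) and with every probe set tested (0.297), while the slope itself stayed between 1.21 and 1.34 under all 8 alternatives. The slope fit has 1 residual degree of freedom and takes its error from the prior over all genes, and it does not tell a step after 3 h from a steady change. The ribosomal RNA intensity of the treated array was above its control at 3 h and below it at both later times. That difference was opposite in sign to the GADD45A log2 ratio at each time. It was also opposite to that of CCND2 on its brightest probe set, and had the same sign as that of CCND3, at each time. The other members past the filter followed it in neither way, and its part in these results was not tested.

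GADD45B, the NF-kappaB and TGF-beta induced relative, was higher with enzastaurin on all 4 of its probe sets at all 3 times. The brightest read 465, 607 and 682 untreated and 1354, 883 and 912 treated. The second read 96.8, 178 and 285 untreated and 548, 336 and 351 treated. The third read 126, 117 and 139 untreated and 295, 280 and 249 treated. These 3 had no overlap between the groups, and on the first and second the gap was widest at 3 h, at 2.91-fold and 5.66-fold, and narrowest at 12 h, at 1.34-fold and 1.23-fold. On these 2 probe sets the untreated values were higher at each later time, whereas the third had an even ratio of 2.35-fold, 2.40-fold and 1.79-fold. The fourth read 128, 66.3 and 111 against 180, 123 and 171, higher in each pair but with overlapping groups. Mean log2 ratios of the 4 probe sets ran from 0.67 to 1.24. The brightest had 0.83 (SE 0.30), which did not pass the test in limma (adjusted p = 0.754). The 4 probe sets read 1 gene on the same arrays and are not independent of each other.

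**Figure D2:**
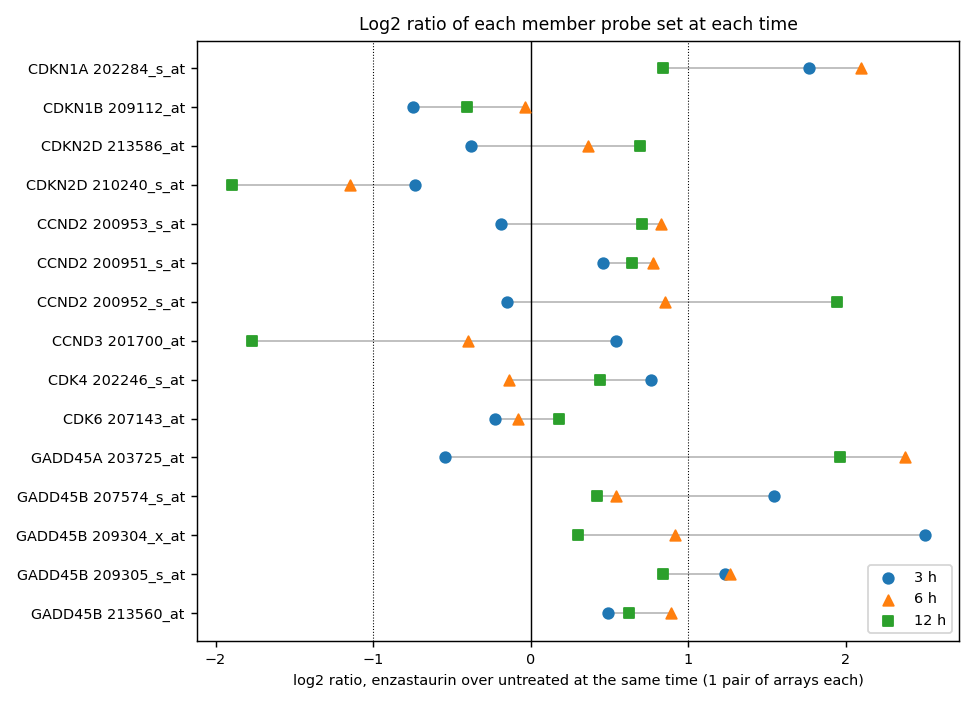
Log2 ratio of enzastaurin over untreated cells (horizontal axis) for each of the 15 probe sets, with blue circles for 3 h, orange triangles for 6 h and green squares for 12 h, each from 1 pair of arrays, and dotted lines at a 2-fold difference. All 12 GADD45B points lie to the right of 0, and GADD45A has its 3 h point at -0.54 and its later points at 2.38 and 1.97.

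At 3 h GADD45A and GADD45B thus went opposite ways, at log2 ratios of -0.54 and 1.54, and at 6 h and 12 h both were higher with enzastaurin. GADD45A had its largest ratio at 6 h and GADD45B, on its brightest probe set, at 3 h. CCND2, on its brightest probe set, and CCND3 differed in sign at every time, with the widest gap at 12 h, at 0.70 and -1.77. At 3 h a second CCND2 probe set, at 0.46, had the same sign as CCND3, at 0.54. CDKN1A and CDKN1B also differed in sign at every time. Whether these pairs of genes differ from each other was not tested.

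Over the 3 times together 0 of the 8 genes were called in limma, where 0.0585 percent of all 6838 genes were. At an unadjusted p under 0.05 in limma there were 4 members (CDKN1A, GADD45A, GADD45B and CCND2, all higher), and 5.41 percent of all genes. The members were chosen with earlier results of these data known, so their counts and the shares over all genes are no independent contrast. With every probe set tested by itself none of the 15 was called, against 0.00525 percent of the 19064 probe sets, and 7 had an unadjusted p under 0.05 in limma, as did 4.93 percent of all probe sets. The median of the mean log2 ratios was 0.40 over the 8 genes and -0.047 over all genes. Of the 15 probe sets, 4 lay higher with no overlap between the groups (1 of CDKN1A and 3 of GADD45B), as 5.09 percent of all probe sets did. CDKN1B alone lay lower with no overlap, where 5.46 percent of all probe sets did. A positive ratio at all 3 times was seen in 6 of the 15, all 4 of GADD45B among them, against 12 percent of all. A negative one was seen in 2, against 11.7 percent. Probe sets of the same gene, here of GADD45B and CCND2, repeat each other, so these counts of probe sets are not counts of independent genes. In bulk RNA, fewer cells with a transcript and less of it per cell cannot be told apart.

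At single times no test was possible, and members at least 2-fold apart were counted. At 3 h CDKN1A and GADD45B were at least 2-fold higher, as were 1.89 percent of all genes, and no member was 2-fold lower (2.65 percent of all). At 6 h it was CDKN1A and GADD45A, beside 5.6 percent of all genes, and again no member was 2-fold lower (3.22 percent of all). At 12 h GADD45A was at least 2-fold higher (3.88 percent of all) and CCND3 at least 2-fold lower (10.4 percent of all). The median log2 ratio of all genes at 12 h was -0.18 as deposited and 0.018 with equal medians of the kept genes. CDKN1A at 12 h, at 0.84, passed 2-fold with quantile normalization (1.05) and with equal medians of the kept genes (1.04). Among all genes 2-fold apart, the share that was lower was 58.4 percent at 3 h and 47.3 to 54.1 percent under the 3 other scalings. At 6 h it was 36.5 percent and 41 to 50.6 percent under them. At 12 h it was 72.9 percent, and it was 49.7 percent with equal medians of the kept genes, 59.2 percent with quantile normalization and 76.4 percent with equal medians of all probe sets.

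Without the 3 h pair, limma called 3 of the 8 genes, all higher, and 3.61 percent of all genes. GADD45A rose by 2.17 log2 units (SE 0.30, n = 2 pairs, adjusted p = 0.000433 in limma). CDKN1A rose by 1.47 (SE 0.34, adjusted p = 0.0202 in limma) and CCND2 by 0.77 (SE 0.18, adjusted p = 0.0239 in limma). CCND3 had a mean log2 ratio of -1.08 (SE 0.37, adjusted p = 0.131 in limma) and GADD45B one of 0.48 (SE 0.29, adjusted p = 0.459 in limma). With the 3 h pair put back none of these calls held, and CDKN1A was the one whose size hardly moved, at 1.57. In these 2 pairs the ribosomal RNA intensity was lower with enzastaurin both times, and the 3′ to 5′ log2 ratio of ACTB probe sets was 0.57 and 0.86 on the treated and 1.16 and 1.60 on the untreated arrays. Of the 10 plasma cell markers, 3 were called lower in the same 2 pairs and 0 higher. TNFRSF17, the BCMA receptor, fell by 2.05 log2 units (adjusted p = 0.00165 in limma). IRF4, a transcription factor of plasma cells, fell by 1.60 (adjusted p = 0.00127 in limma) and SDC1, the surface proteoglycan CD138, by 1.04 (adjusted p = 0.0246 in limma). Over the 3 times none of the 10 markers was called, and 2 had a called slope. TNFRSF17 ran downward (-1.53, adjusted p = 4.66e-07 in limma) and JCHAIN, which joins immunoglobulin chains, upward (0.69, adjusted p = 0.0163 in limma). These slopes rest on 1 residual degree of freedom, and with equal medians of the kept genes 0 slopes were called among all genes. CD38, a surface enzyme, was lower in each pair, at -0.13, -0.012 and -0.75. The summed intensity of the 10 markers was 22634 to 28834 on untreated and 21710 to 25836 on treated arrays. The part of all these measures in the result was not tested.

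**Figure D3:**
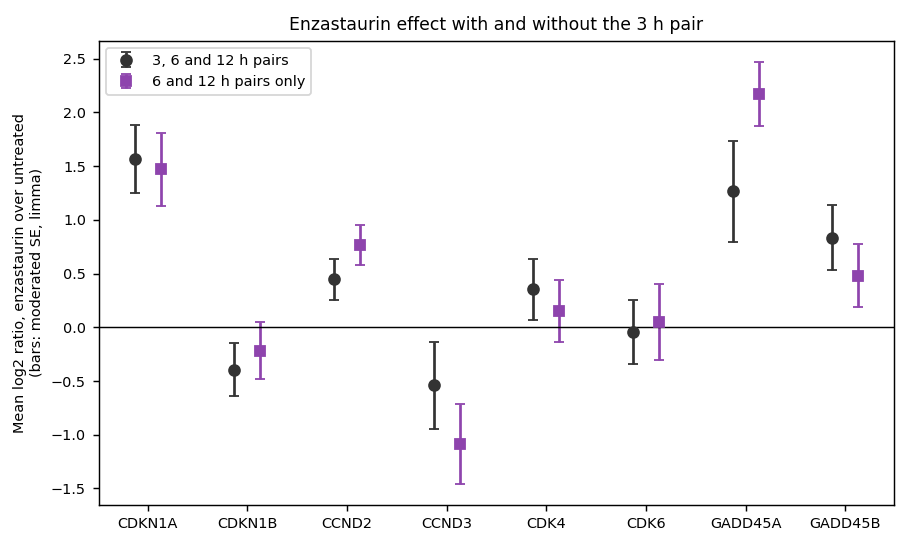
Mean log2 ratio of enzastaurin over untreated cells (vertical axis) for the 8 genes past the filter, with black circles for all 3 pairs and purple squares for the 6 h and 12 h pairs, and bars of 1 moderated SE on each side. GADD45A moves from 1.27 to 2.17 without the 3 h pair, while CDKN1A stays at 1.57 and 1.47.

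The genes closest in pattern to the 3 largest members were found by the Euclidean distance between their log2 ratios at 3, 6 and 12 h, over all 6838 genes. Nearest to CDKN1A was DDIT4, a stress-induced inhibitor of mTORC1, at a distance of 0.59, with RHOB, a small GTPase, at 0.73 and NEU1, a lysosomal sialidase, at 0.78. DDIT4 had ratios of 1.89, 1.92 and 1.40, so like CDKN1A it was lowest at 12 h. Nearest to GADD45A were RAB30 (0.34), TESC (0.37) and GNA13 (0.37), each lower at 3 h and more than 2-fold higher at both later times. Nearest to GADD45B were CAPN10 (0.45), SLC38A7 (0.49) and ATP6V0D1 (0.55), each with its largest ratio at 3 h. Such likenesses follow from the search itself and are no separate result. None of these 9 genes passed the test of the mean ratio in limma (adjusted p from 0.120 for DDIT4 to 0.980 for ATP6V0D1).

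Other genes of the pathway were taken from fixed lists. Of 25 further G1/S genes 20 passed the filter, 0 were called higher or lower over the 3 times, and the median of their mean log2 ratios was -0.13. SKP2, the F-box protein that marks CDKN1B for degradation, had ratios of -1.15, -0.37 and -0.37, so it was lower in the same 3 pairs as CDKN1B. CKS2, a small CDK-binding protein, had -0.049, -0.29 and -1.27, and CUL1, the scaffold of the SKP2 ligase, had -0.015, -0.83 and -0.39. FBXW7, which marks cyclin E and MYC for degradation, was the 1 gene of the list with a called slope (-1.57, SE 0.41, adjusted p = 0.0181 in limma). With equal medians of the kept genes its slope was not called. FBXW7 read 25.1 with enzastaurin at 12 h and 49.1 untreated at 6 h, both within the range of the unexpressed markers. With enzastaurin at 6 h it read 55.9, near the edge of that range, so the size of its change is not exact.

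Among 6 other CDK inhibitors and GADD45 relatives 4 passed the filter and 0 were called. CDKN1C, the third Cip/Kip protein, had ratios of 0.049, 0.61 and 0.37, and CDKN3, a phosphatase of CDK2, had -0.26, -0.19 and -0.18. Of 11 partners of GADD45 proteins 8 had a probe set, 6 passed and 0 were called. MAPK9, the kinase JNK2, was the only one of the 6 with a positive ratio at all 3 times, at 0.14, 0.34 and 0.28. Of 19 p53 target genes 13 had a probe set, 8 passed the filter and 0 were called. The median of their mean log2 ratios was 0.0048, with 4 above 0 and 4 below. SESN1, a p53 target that restrains mTORC1, had -0.18, -0.81 and -1.14, the opposite sign of CDKN1A.

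Of 16 regulators of the members 15 had a probe set, 12 passed the filter and 0 were called over the 3 times. DDIT3, which encodes the stress factor CHOP, had ratios of 2.25, 1.11 and 1.95, and CEBPB had 0.45, 0.64 and 1.77. MYC, which represses CDKN1A and activates CDK4 and CCND2, had -0.66, -0.53 and -2.09. In the 6 h and 12 h pairs alone DDIT3 was called higher and MYC lower. All 17 proliferation genes passed the filter and all 17 had a mean log2 ratio below 0, with a median of -0.24 and 0 called over the 3 times in limma. CDC20, which activates the anaphase complex, had -0.36, -0.36 and -0.81. TOP2A had -0.65, -0.22 and -0.40, and the mitotic kinase AURKA had -1.32, -0.0026 and -0.043. Of the 12 regulators past the filter, 5 had an unadjusted p under 0.05 in limma, and of the proliferation genes 0 did, where 5.41 percent of all genes did.

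**Figure D4:**
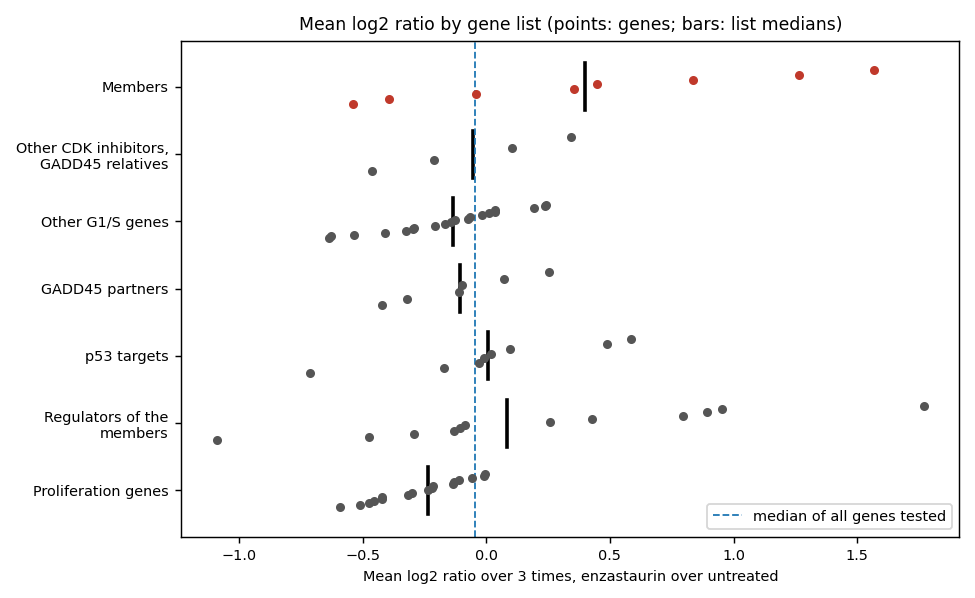
Mean log2 ratio over the 3 times (horizontal axis) of every gene past the filter in each list, with the 8 genes described here in red, the other lists in grey, black bars at the list medians and a dashed line at the median of all genes, -0.047. CDKN1A at 1.57 and GADD45A at 1.27 stand furthest right among the red points, and the proliferation genes lie to the left of 0.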

How the data were processed

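RNA of MM.1S cells was labelled and hybridised to Affymetrix arrays, 6 in all. The deposited table holds a linear intensity for each probe set, computed by MAS5 according to the submitters' processing notes, and its scaling target and detection calls are not given. The authors' scaling was kept, intensities were floored at 1 and log2 transformed. The platform annotation paired 19064 probe sets with 1 gene, 1043 with several and 2108 were not listed. The brighter 50 percent of probe sets by mean log2 value (geometric mean of at least 63.3) were kept, and the brightest of each gene was tested, which left 6838 genes. Fits used R 4.3.3 and limma 3.58.1 (lmFit and trended eBayes) with the time point as a block, since the controls were taken at the same times. The fit has 2 residual and 9.26 prior degrees of freedom. The slope of the effect on log2 hours has 1 residual degree of freedom and an infinite prior. Without the 3 h pair the fit has 1 residual and 16.86 prior degrees of freedom. P-values were adjusted by Benjamini-Hochberg over all genes. Every probe set was also tested by itself with no filter.

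Named genes were all members, genes of the lists with a call or among the 3 largest mean ratios of 1 sign at all times, and the 3 nearest genes of each of 3 members. MCM7 in the closing section was chosen after its values were seen. Members and lists were chosen with earlier results of these data known. The fits were tested on simulated data. Normalization, filter, choice of probe set, prior, floor, block and left-out pairs were varied. The number of arrays limits the precision.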

Additional observations from a re-analysis of the deposited data

Results flagged for a closer look

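The effect of enzastaurin on GADD45A differed between times: the slope of its log2 ratio on log2 hours was 1.25 per doubling (SE 0.35, adjusted p = 0.0314 in limma), with log2 ratios of -0.54, 2.38 and 1.97 at 3, 6 and 12 h. The call was lost under 3 of 8 alternatives, with adjusted p between 0.0166 and 0.366 over all 8 in limma.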

How the results depend on the processing

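Over the alternatives the mean ratios of CDKN1A, GADD45A, GADD45B, CCND2 and CDK4 stayed positive and that of CDKN1B negative, but their sizes moved when 1 pair was left out. GADD45A had 0.71 without the 6 h pair and 2.17 without the 3 h pair, CCND2 0.26 and 0.77, and CDK4 0.60 and 0.15. Without the 3 h pair GADD45B had 0.48 and CDKN1B -0.22. CDKN1A ran from 1.30 to 1.93. CCND3 ran from -1.08 without the 3 h pair to 0.074 without the 12 h pair. CDK6, near 0 throughout, turned to 0.019 with equal medians of the kept genes and ran from -0.15 without the 12 h pair to 0.046 without the 3 h pair. Of 96 such values 90 kept direction and call. No member was called over the 3 times to begin with, so a kept call here means staying uncalled, whatever the size. The count of 4 genes called over the 3 times was 1 with equal medians of all probe sets, 1 with no filter and 1 with every probe set tested. It was 0 with no intensity trend in limma (360 at an unadjusted p under 0.05), 2 without the time pairing (no replicate block), and between 0 and 247 when 1 time pair was left out. The count was 247 without the 3 h pair and 0 in limma without the 6 h pair (169 unadjusted) or the 12 h pair (134). The count of called slopes was 98, and it was 13 with quantile normalization, 167 with equal medians of all probe sets, 151 with no filter and 21 with every probe set tested. With equal medians of the kept genes it was 0 in limma (675 unadjusted). The share of downward slopes was 64.3 percent, and 38.5 percent with quantile normalization. With no filter the genes at least 2-fold apart numbered 1578 at 3 h, 2061 at 6 h and 2224 at 12 h, against 310, 603 and 977. With 1 array for each treatment and time, the spread of replicates at a single time cannot be had, and values near 54.8 or below, such as those of CDKN2D, have no exact size.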

Other observations

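MCM7, a subunit of the replicative helicase, was the 1 proliferation gene called in the 6 h and 12 h pairs alone (adjusted p = 0.0437 in limma). Its log2 ratio was 0.23 at 3 h, with intensities of 1358 untreated and 1592 with enzastaurin, and -0.90 and -1.11 at 6 h and 12 h. MCM7 was chosen after its values were seen.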
